A study of Mus musculus with 16 samples.

Results

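The Kruppel-like factor (KLF) genes of microglia from the mouse olfactory bulb were taken as 9 genes of the count table by their symbols: Klf2, Klf3, Klf4, Klf6, Klf7, Klf9, Klf10, Klf12 and Klf13. These are 9 of 57010 listed genes, and all 9 passed the filter that left 18227 genes for testing. The study compared WT mice on the C57BL/6J background with APP-NL-G-F mice, which carry a knock-in of the App gene with 3 familial Alzheimer's disease changes in both copies. All animals were 2 months old, and each genotype gave 4 libraries of the f group (female) and 4 of the m group (male), named here WT_f, WT_m, KI_f and KI_m with replicates 1 to 4. According to the methods, the control mice were purchased C57BL/6J animals, and littermates are not mentioned. Any part of the animals' source in a genotype difference was not tested. The knock-in is present in every cell that expresses App, so a difference in microglia need not begin in microglia. Cells were freed from perfused tissue with papain at a warm temperature and pulled out with CD11b microbeads over successive columns, and total RNA was made into stranded libraries.

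KLF proteins are transcription factors that bind GC-rich boxes and CACCC boxes in promoters through zinc fingers near their carboxyl end. Subgroups differ in their partners: Klf2, Klf4, Klf6 and Klf7 work mainly with acetyltransferases, Klf9, Klf10 and Klf13 recruit the Sin3 corepressor, and Klf3 and Klf12 recruit CtBP. Klf2 and Klf4 are known to set the inflammatory state of macrophages and microglia, and Klf2, Klf4, Klf6 and Klf10 are induced within minutes to hours by many stimuli.

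Promoter sequence is shown for Klf2, Klf4 and Klf6, the members that passed both thresholds of the genotype test below. The windows cover the 250 bases before the start of the canonical transcript in the GENCODE annotation of GRCm39, read on the strand of the gene. The Klf4 window was shortened to the 188 bases that lie outside its own exons. Capitals mark matches on either strand to the GC box GGGCGG, the CACCC box CCACCC and, at the left end of the Klf6 window, a site for MEF2, a factor known to act upstream of KLF genes. The windows are chr8:73072476-73072725 (plus strand) for Klf2, chr4:55532529-55532716 (minus strand) for Klf4 and chr13:5911231-5911480 (plus strand) for Klf6.
Klf2: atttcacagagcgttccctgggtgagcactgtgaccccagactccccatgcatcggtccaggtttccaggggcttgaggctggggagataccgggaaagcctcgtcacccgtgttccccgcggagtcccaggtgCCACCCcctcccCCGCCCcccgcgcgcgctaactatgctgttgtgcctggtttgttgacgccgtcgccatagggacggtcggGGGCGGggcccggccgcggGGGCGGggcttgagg
Klf4: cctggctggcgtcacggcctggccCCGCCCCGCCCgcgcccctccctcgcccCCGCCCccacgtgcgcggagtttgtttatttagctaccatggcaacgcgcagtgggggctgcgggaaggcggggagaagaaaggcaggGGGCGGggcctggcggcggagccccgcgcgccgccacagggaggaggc
Klf6: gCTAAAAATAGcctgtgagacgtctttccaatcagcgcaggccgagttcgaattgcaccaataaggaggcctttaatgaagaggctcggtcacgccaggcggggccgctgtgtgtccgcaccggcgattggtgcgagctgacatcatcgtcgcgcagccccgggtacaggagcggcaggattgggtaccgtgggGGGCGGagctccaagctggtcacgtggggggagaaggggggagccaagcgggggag

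A GC box was found in the full windows of 8 of the 9 members, all but Klf9, and in 36.3% of the windows of 21770 protein-coding genes. The CACCC box was found in 4 members, Klf2, Klf3, Klf12 and Klf13, and in 28.6% of all windows. The member windows held 46.4% (Klf9) to 82.4% (Klf3) of G and C, beside a median of 53.2% for all windows. The MEF2 site of Klf6, which occurs in 2.79% of all windows, starts 249 bases before the start site. No member window held the cyclic AMP response element TGACGTCA (1.69% of all windows), the AP-1 site TGANTCA (6.17%), the CArG box of serum response factor (1.4%) or the TATA box TATAAA (11.9%).

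Between 9052932 and 18117286 counts were assigned to genes in each library. The 9 members held from 111 counts (Klf9) to 6871 counts (Klf6) in single libraries, so none was limited by a count of 0. Levels are given as CPM, the count relative to the library total after TMM scaling. Xist was at 547.4 CPM or more in every f library and at 0.4483 CPM or less in every m library. WT libraries held App at 370.5 to 462.3 CPM, and the knock-in libraries held it at 388.2 to 422.8 CPM. A gene count carries no base calls and does not check the genotype labels. Microglia markers such as P2ry12 and Tmem119 summed to 20000 to 23650 CPM over the 16 libraries, while 8 lymphocyte markers summed to 0.2031 to 1.642 CPM. A reporting form of the study mentions technical replicates for the sequencing, and nothing in the labels ties a library to 1 animal, so the p-values measure the spread between these libraries.

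Levels of different genes were compared per kilobase of exonic length in the 8 WT libraries. Klf6 was highest, with a median of 76.9 CPM per kilobase (48.6 to 107.1) and rank 286 of 17317 genes. Klf2 followed with a median of 54.8 CPM per kilobase (27.4 to 108.8) and Klf4 with 31.4 CPM per kilobase (20.3 to 89.6). The ranges of these neighbours overlapped, and all of them lay above the next group. That group was Klf10 with a median of 12.1, Klf13 with 11.7 and Klf3 with 11.4 CPM per kilobase, which overlapped with each other. Klf7 came next with a median of 5.72 CPM per kilobase, then Klf12 with 2.54 and Klf9 with 1.79, and no ranges of these neighbours overlapped in WT. Klf9, the least abundant member, had rank 8991 of 17317 genes.

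Spread between libraries separated the members in a similar way. The standard deviation of log2 CPM within the 4 groups was 0.62 for Klf2, 0.57 for Klf4, 0.41 for Klf6 and 0.40 for Klf10, beside a median of 0.24 over all tested genes. It was 0.09 for Klf12, 0.10 for Klf3, 0.12 for Klf13, 0.14 for Klf7 and 0.19 for Klf9.

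**Figure D1:**
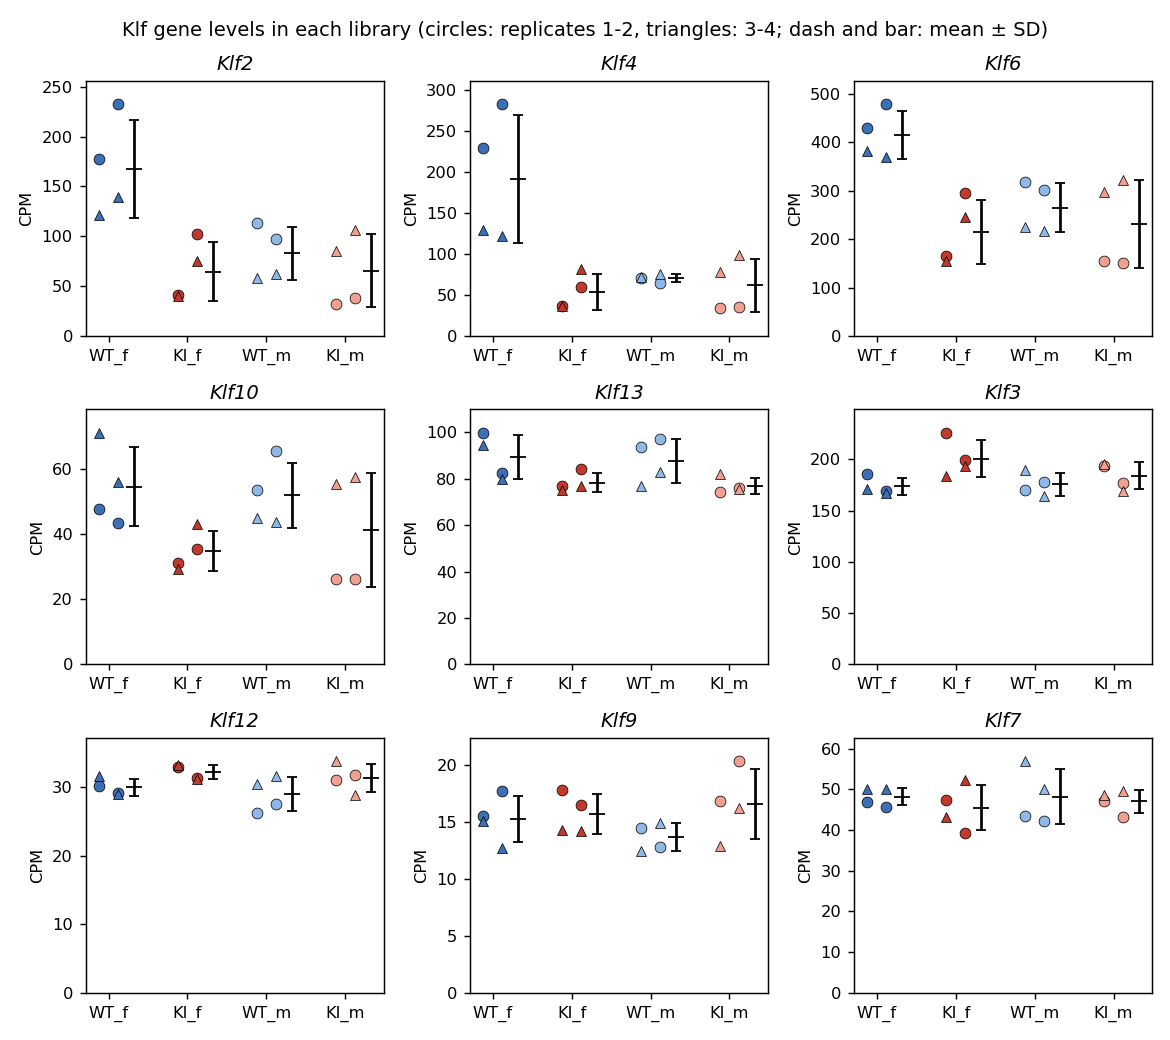
Level in CPM (the count relative to the library total after TMM scaling) of each Klf gene (y axis) in every library of the 4 groups (x axis), with circles for replicates 1 and 2, triangles for replicates 3 and 4, and the mean with its SD at the right of each group. Klf2, Klf4 and Klf6 stand highest in WT_f, and in KI_m the circles of Klf2, Klf4, Klf6 and Klf10 lie below the triangles.

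Whether the knock-in changes KLF expression in olfactory bulb microglia was examined over both sexes. Klf2, Klf4 and Klf6 were lower in APP-NL-G-F microglia, and no member was higher by the same rule. The rule was an FDR below 0.1 with an absolute log2 fold change above 0.5 in edgeR's quasi-likelihood test with sex as a term. It called 3 of 9 members, beside 8.64% of all tested genes in either direction and 4.3% in the lower direction. At the FDR alone, 6 of 9 members passed (Klf2, Klf4, Klf6, Klf10 and Klf13 lower, Klf3 higher), beside 14.8% of all genes. The median log2 fold change of the 9 members was -0.19, and that of all genes was 0.00. In bulk samples, fewer cells of a type and less RNA per cell cannot be told apart.

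Klf2, which keeps macrophages and endothelial cells in a quiescent state, lies on chromosome 8 from 73072726 to 73075502. Its level in WT libraries was 177.4, 232.4, 121.0 and 139.6 CPM in WT_f and 112.9, 97.4, 58.6 and 62.3 CPM in WT_m. In APP-NL-G-F libraries it was 40.9, 102.2, 40.0 and 75.1 CPM in KI_f and 32.1, 38.1, 85.6 and 106.5 CPM in KI_m. Every KI_f library lay below every WT_f library, while the m libraries of the genotypes interleaved. WT libraries averaged 125.2 ± 58.3 CPM and APP-NL-G-F libraries 65.1 ± 30.8 CPM (SD, n = 8 each). The log2 fold change was -0.86 with a standard error of 0.281 (edgeR FDR 0.0614). Klf2 sits inside Eps15l1, an endocytosis gene on the opposite strand whose exons it does not overlap. The log2 fold change of Eps15l1 was 0.04 (edgeR FDR 0.722).

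Klf4, a regulator of macrophage activation and of pluripotency, lies on chromosome 4 from 55527139 to 55532528. In WT_f its level was 229.2, 282.2, 129.4 and 122.2 CPM, and in WT_m 70.3, 64.1, 71.7 and 75.7 CPM. In KI_f it was 36.7, 59.6, 36.5 and 81.5 CPM, and in KI_m 34.02, 35.8, 78.3 and 98.7 CPM. All WT_f libraries stood above all other libraries, and the KI_m libraries fell on both sides of the narrow WT_m range. WT libraries averaged 130.6 ± 82.2 CPM and APP-NL-G-F libraries 57.6 ± 25.6 CPM (SD, n = 8 each), which gave -1.02 on the log2 scale with a standard error of 0.309 (edgeR FDR 0.0459).

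Klf6, an activator induced by injury and growth signals, lies on chromosome 13 from 5911481 to 5920393. In WT_f its level was 429.8, 478.6, 382.8 and 369.4 CPM, and in WT_m 317.4, 300.5, 225.9 and 217.1 CPM. In KI_f it was 165.8, 294.8, 153.8 and 245.1 CPM, and in KI_m 155.4, 150.1, 296.7 and 321.8 CPM. As for Klf2 and Klf4, the f libraries of the genotypes did not overlap and the m libraries did. The log2 fold change over both sexes was -0.58 (standard error 0.188, edgeR FDR 0.0615), with averages of 340.2 ± 92.7 CPM for WT and 222.9 ± 74.4 CPM for APP-NL-G-F (SD, n = 8 each). Klf7, the remaining member that works with acetyltransferases and a factor of neuronal and T cell development, ranged from 42.4 to 56.9 CPM in WT and from 39.2 to 52.2 CPM in APP-NL-G-F. Its log2 fold change was -0.06 (standard error 0.0658, edgeR FDR 0.673).

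Among the Sin3-recruiting members, Klf10, the early TGF-beta response gene, came closest to the rule. Its level was 47.8, 43.6, 71.2 and 56.0 CPM in WT_f and 53.6, 65.4, 44.9 and 43.9 CPM in WT_m. In KI_f it was 31.2, 35.4, 29.4 and 43.1 CPM, and in KI_m 26.3, 26.3, 55.4 and 57.6 CPM. The f libraries of the genotypes were just apart and the KI_m libraries formed a low and a high pair. The log2 fold change of Klf10 was -0.49 (standard error 0.166, edgeR FDR 0.0707), just inside the fold threshold of 0.5.

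Klf13, a factor of lymphocyte chemokine expression, ranged from 76.9 to 99.8 CPM in WT (median 88.3) and from 74.1 to 84.1 CPM in APP-NL-G-F (median 76.4). Every APP-NL-G-F library of a sex lay below the WT median of that sex, and the share of all genes that do so was not computed. Its log2 fold change was -0.19 (standard error 0.0558, edgeR FDR 0.0384), past the FDR but under the fold threshold. Klf9, a glucocorticoid-induced factor, ranged from 12.4 to 17.7 CPM in WT (median 14.7) and from 12.9 to 20.4 CPM in APP-NL-G-F (median 16.4). The ranges overlapped, with the top of the APP-NL-G-F range above that of WT. The log2 fold change of Klf9 was 0.16 (standard error 0.0945, edgeR FDR 0.317).

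The CtBP-recruiting repressors Klf3 and Klf12 had higher values in APP-NL-G-F microglia by small amounts. Klf3, a brake on B cell and fat cell programmes, ranged from 164.4 to 189.7 CPM in WT (median 171.0) and from 168.9 to 226.0 CPM in APP-NL-G-F (median 193.7). Its log2 fold change was 0.14 (standard error 0.0513, edgeR FDR 0.0998), just past the FDR. Klf12 ranged from 26.3 to 31.6 CPM in WT (median 29.6) and from 28.9 to 33.8 CPM in APP-NL-G-F (median 31.6), with a log2 fold change of 0.11 (standard error 0.0487, edgeR FDR 0.17). An exon of Klf3 overlaps the antisense lncRNA gene Gm20033, whose own log2 fold change was -0.09 (edgeR FDR 0.857). Exons of Klf7, Klf9, Klf10 and Klf12 also overlap antisense lncRNA genes (Gm13748, Gm56648, Gm35248 and Gm41231), and since the strand setting of the counting is not stated, reads of such pairs may not be separated.

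Exchanging genotype within sex in all 4900 ways gave two-sided exact permutation p-values of 0.0155 for Klf2, 0.00939 for Klf4, 0.0163 for Klf6, 0.0208 for Klf10 and 0.00898 for Klf13. For Klf3 and Klf12 the exact permutation p was 0.0188 and 0.0204, for Klf9 0.14 and for Klf7 0.418. These values are not adjusted for the number of genes. All 8 APP-NL-G-F libraries were below the WT median of log2 CPM for Klf2, Klf6 and Klf13, and 7 of 8 for Klf4. For Klf4 the exception, KI_m replicate 4, lay above that log2 median. On the CPM scale it lay just below the WT median, with 98.66 beside 98.93 CPM. The share of all genes with such counts was not computed, so they are not read as a result about the members.

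The calls depended on single libraries. When 1 library at a time was removed, Klf4 lost its call in 1 of 16 fits, the one without KI_f replicate 3. Klf2 and Klf6 both lost theirs without KI_f replicate 1, 3 or 4, KI_m replicate 1 or 2, WT_f replicate 1 or 2, or WT_m replicate 2, and Klf6 also without WT_f replicate 3. Over these fits the log2 fold change stayed between -1.06 and -0.73 for Klf2, -1.23 and -0.84 for Klf4, and -0.69 and -0.48 for Klf6. With a robust dispersion estimate 0 of the 9 members were called.

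**Figure D2:**
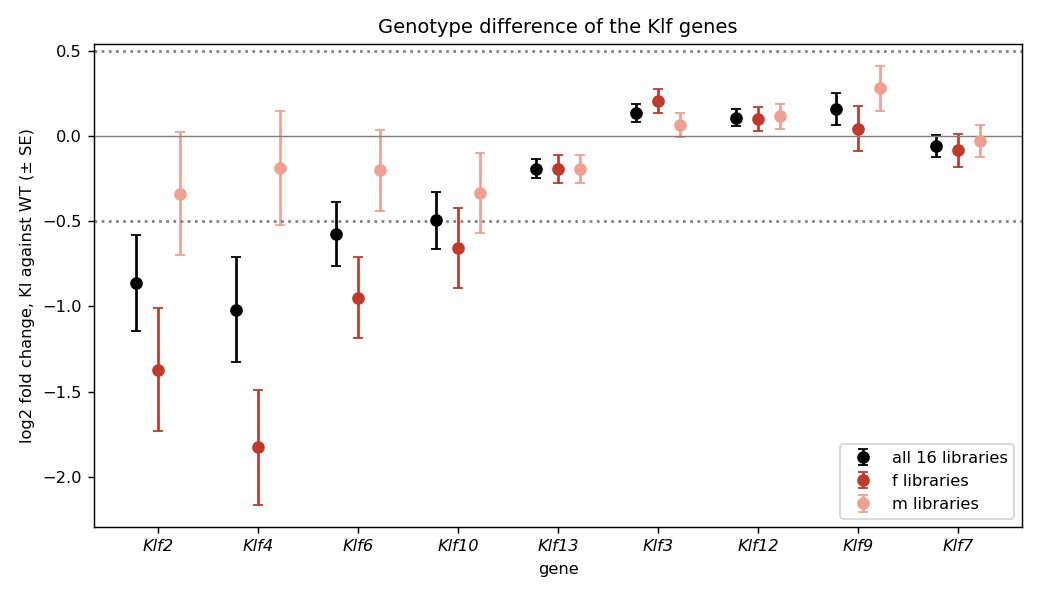
Log2 fold change of APP-NL-G-F (KI) against WT with its standard error (y axis) for each Klf gene (x axis), over all 16 libraries, in the f libraries and in the m libraries; dotted lines mark the fold threshold of 0.5. Klf4 reaches -1.83 in f libraries and -0.18 in m libraries, and the genes from Klf13 to the right stay within 0.5 of 0.

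Within the sexes, Klf2, Klf4 and Klf6 passed the test in the f libraries. In f, Klf4 fell by 1.83 (edgeR FDR 0.00349), Klf2 by 1.37 (edgeR FDR 0.0324) and Klf6 by 0.95 (edgeR FDR 0.0255) on the log2 scale. These 3 of 9 members stand beside 4.33% of all genes called lower in f. Every KI_f library lay below every WT_f library for 4 members, Klf2, Klf4, Klf6 and Klf10, beside 7.41% of all genes. Klf10 had a log2 fold change of -0.66 in f (edgeR FDR 0.114).

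In the m libraries 0 of 9 members were called, beside 0.252% of all genes, and DESeq2 and limma voom also called 0. The log2 fold changes in m were -0.34 for Klf2, -0.18 for Klf4, -0.20 for Klf6 and -0.33 for Klf10. In m, 2 members had an unadjusted p under 0.05, Klf9 with 0.28 (edgeR FDR 0.422) and Klf13 with -0.19 (edgeR FDR 0.374). The share of all genes at an unadjusted edgeR p under 0.05 was not computed, here or in the comparisons below. Klf13 had a log2 fold change of -0.19 in f as well.

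The difference of the genotype effects between the sexes was tested as an interaction, which called 0 of 9 members, beside 0.0274% of all genes. DESeq2 and limma voom called 0 too. The interaction was -1.64 for Klf4 (standard error 0.472, unadjusted edgeR p 0.00271, FDR 0.364), -0.75 for Klf6 (standard error 0.336, FDR 0.801) and -1.03 for Klf2 (standard error 0.509, FDR 0.868). Klf4 and Klf6 were the 2 members with an unadjusted p under 0.05. A sex difference in the genotype effect was therefore not shown for any member, although without the filter on low counts Klf2, Klf4 and Klf6 passed.

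The f and m libraries were also compared directly. Over both genotypes 0 of 9 members differed, beside 0.0604% of all genes, and 0 had an unadjusted p under 0.05, with 0 calls by DESeq2 and limma voom. Within WT, Klf4 was 1.44 higher in f on the log2 scale (standard error 0.334, edgeR FDR 0.0642), the 1 member called beside 0.938% of all genes. Klf2 and Klf6 had values 1.01 and 0.64 higher in f without passing (edgeR FDR 0.28 and 0.298). Every WT_f library lay above every WT_m library for Klf2, Klf4 and Klf6, beside 4.2% of all genes. Within APP-NL-G-F, 0 of 9 members were called beside 0.0549% of all genes, again with 0 by DESeq2 and 0 at an unadjusted p under 0.05. The call of Klf4 within WT was lost without WT_f replicate 1 or 2 or without any 1 of the 4 WT_m libraries.

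Replicates 1 and 2 of every group carry library names 1 to 8 and replicates 3 and 4 carry names 9 to 16, which the labels do not call batches. These are called the first and second replicate sets. A term for the sets called 0 of 9 members, beside 0.73% of all genes, and 0 by DESeq2 and limma voom. At an unadjusted p under 0.05 it held 3 members: Klf7 with 0.17 higher in replicates 3 and 4, Klf10 with 0.33 higher and Klf9 with -0.22 (edgeR FDR 0.105, 0.299 and 0.194). The genotype difference, however, was not alike in the sets.

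In the m libraries of replicates 1 and 2, Klf2, Klf4, Klf6 and Klf10 were all lower in APP-NL-G-F. Their log2 fold changes were -1.58 (edgeR FDR 0.00955), -0.94 (FDR 0.0462), -1.02 (FDR 0.00906) and -1.18 (FDR 0.000763), 4 of 9 members beside 10.5% of all genes. In the m libraries of replicates 3 and 4 the same genes had values of 0.67, 0.27, 0.48 and 0.35, with 0 of 9 called beside 0.143% of all genes and 2 at an unadjusted p under 0.05 (Klf6 and Klf10). For Klf2, replicates 1 and 2 gave 32.1 and 38.1 CPM in KI_m against 112.9 and 97.4 CPM in WT_m, whereas replicates 3 and 4 gave 85.6 and 106.5 CPM against 58.6 and 62.3 CPM. Within each set the m libraries of the genotypes did not overlap for this gene, in opposite directions. Each of these comparisons holds 2 against 2 libraries, and the share of all genes separated in this way was not computed.

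A test of that difference, genotype by replicate set in m libraries, called Klf2 (2.25, standard error 0.454, edgeR FDR 0.0391), Klf6 (1.498, standard error 0.291, FDR 0.0323) and Klf10 (1.53, standard error 0.218, FDR 0.00512). These 3 of 9 members stand beside 1.71% of all genes, and DESeq2 and limma voom called the same 3. Klf4 had 1.21 (FDR 0.142). The test was chosen after the values were seen. Each set holds 2 libraries per group, and only Klf10 was called without KI_m replicate 1, without KI_m replicate 2, without WT_m replicate 3 or with a robust dispersion.

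In the f libraries the sets pointed the same way. Replicates 1 and 2 had log2 fold changes of -1.52 for Klf2, -2.41 for Klf4 and -0.98 for Klf6, 3 of 9 members called beside 9.09% of all genes. Replicates 3 and 4 had -1.17, -1.09 and -0.91, and with Klf10 at -0.81 these made 4 of 9 members called beside 2.78% of all genes. Genotype by replicate set in f called 0 of 9 members beside 0.11% of all genes, with Klf4 at 1.33 the 1 member at an unadjusted p under 0.05 (edgeR FDR 0.39). Averaged over both sexes it called Klf4 (1.27, standard error 0.262, edgeR FDR 0.0903), 1 of 9 members beside 0.263% of all genes.

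**Figure D3:**
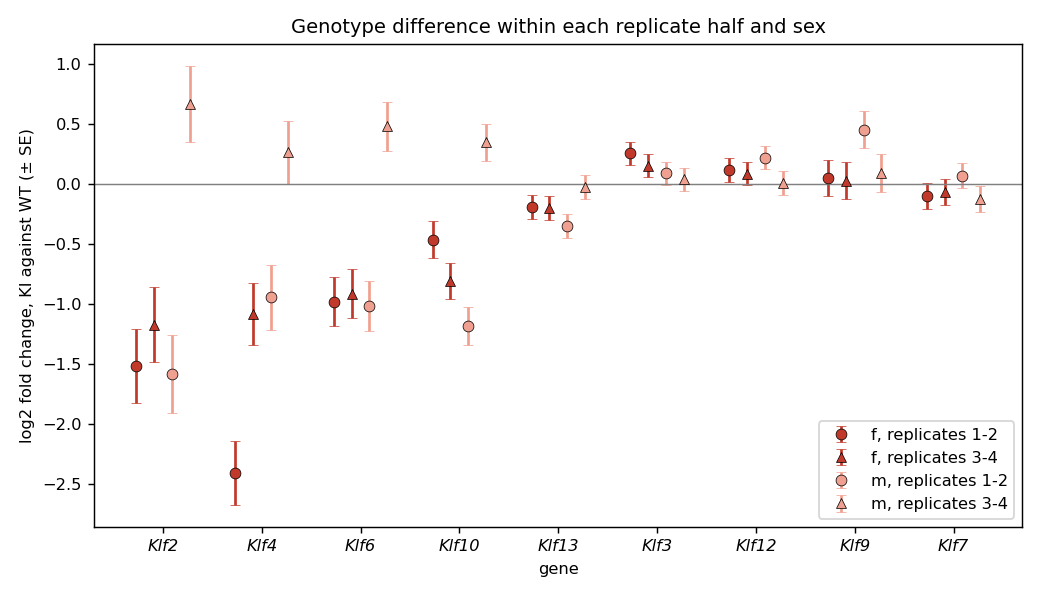
Log2 fold change of APP-NL-G-F (KI) against WT with its standard error (y axis) for each Klf gene (x axis). Contrasts are shown for f and m libraries and for replicates 1 and 2 (circles) and 3 and 4 (triangles). Each compares 2 with 2 libraries, within 1 fit of all 16 libraries. For Klf2, Klf4, Klf6 and Klf10 the m libraries of replicates 3 and 4 lie above 0 and the other contrasts below it.

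Genes that share an expression pattern with a member were sought by the Pearson r of log2 CPM deviations from the 4 group means over the 16 libraries. Nearest to Klf4 were Dusp1 (r = 0.981), Fos (r = 0.973) and Fosb (r = 0.963), all immediate early genes that cells switch on within minutes of a stimulus. Nearest to Klf2 was Klf6 (r = 0.977), and the reverse held, followed by Gm37305 for both (r = 0.936 and 0.947) and by ENSMUSG00000120202 for Klf2 and 4930404I05Rik for Klf6 (r = 0.927 and 0.942). For Klf10 they were Tiparp, Maff and Gem (r = 0.967, 0.964 and 0.957), likewise rapidly induced genes.

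The steadier members had other neighbours. These were Qki, U2surp and Tbc1d8b for Klf3 (r = 0.944 to 0.879), Pacc1, Stn1 and Eri3 for Klf7 (0.872 to 0.853) and Zc3h13, Septin8 and Pls3 for Klf9 (0.912 to 0.878). For Klf12 they were Cklf, Ube4b and Map2k5 (0.934 to 0.895), and for Klf13 Smad4, Man1a and Prkacb (0.914 to 0.878). After the r of 0.977 between Klf2 and Klf6, the best partner among the members was Klf2 for Klf4 (r = 0.827) and Klf6 for Klf10 (r = 0.738), beside at most 0.452 for Klf3, Klf7, Klf9, Klf12 and Klf13. Such r values come from the same libraries and share their depth, and the highest of 18227 genes is high by selection.

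A score of 16 immediate early genes, none of them a KLF gene, was set against the members. In the knock-in comparison 14 of these 16 genes were called lower, with a median log2 fold change of -1.06. The smallest p-values belonged to Btg2 (-1.44, edgeR FDR 0.000723), Ier2 (-1.29), Egr1 (-1.29) and Zfp36 (-1.25). Fos, Fosb and Dusp1, the genes nearest to Klf4, had -1.61, -1.46 and -1.24. Their score, the mean log2 CPM, was 9.081 to 9.196 in WT_f, 8.204 to 8.437 in WT_m, 7.346 to 8.234 in KI_f and 7.112 to 8.357 in KI_m. WT_f was highest, and KI_m replicates 1 and 2 were lowest, the order also seen for Klf4.

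Deviations of Klf4 from its group means followed those of the score with Pearson r = 0.858 and Spearman rho = 0.879 over 16 libraries. The two-sided permutation p within groups was 0.00024 for r and 0.00032 for rho. Adjusted over all 18227 tested genes these were 0.23 and 0.309. For r, 0 genes passed 0.05 (0.0% of those tested, with 1410 at an unadjusted p under 0.05). The smallest permutation p for r of any gene was 2e-05. None of the 16 genes that make up the score passed either, so this adjustment cannot show that a relation is absent. Without the libraries farthest from the median score, KI_m replicates 1 and 2, r was 0.725 for Klf4.

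The same r was 0.707 for Klf2, 0.757 for Klf6 and 0.761 for Klf10 (permutation p 0.0824, 0.0862 and 0.0664, adjusted 0.708, 0.71 and 0.692), and without those libraries it was 0.372, 0.406 and 0.292, so the r over all 16 libraries depended on them. Within the 8 WT libraries r was negative for these genes, at -0.387 for Klf2, -0.572 for Klf6 and -0.838 for Klf10, and within the 8 APP-NL-G-F libraries it was 0.859, 0.875 and 0.973. For Klf4 r was 0.466 among WT libraries and 0.981 among APP-NL-G-F libraries. The score varied little within the WT groups, with an SD of 0.05 in WT_f and 0.11 in WT_m. In KI_f and KI_m its SD was 0.42 and 0.66. No p-value was computed for r within a genotype, so a difference of the relation between the genotypes was not tested. For the other 5 members r lay between -0.482 (Klf9) and 0.459 (Klf7) with permutation p from 0.0522 to 0.736, and no adjusted p was under 0.654. Within replicates 1 and 2 alone r was 0.864 for Klf2, 0.827 for Klf4, 0.931 for Klf6 and 0.347 for Klf10, and within replicates 3 and 4 it was 0.978, 0.993, 0.983 and 0.818. With 8 libraries in groups of 2 the smallest exact p is 0.125, so neither set can pass 0.05. The exact permutation p for Klf2, Klf4, Klf6 and Klf10 was 0.75, 0.75, 0.625 and 0.75 in replicates 1 and 2. In replicates 3 and 4 it was 0.125, 0.25, 0.5 and 0.625.

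**Figure D4:**
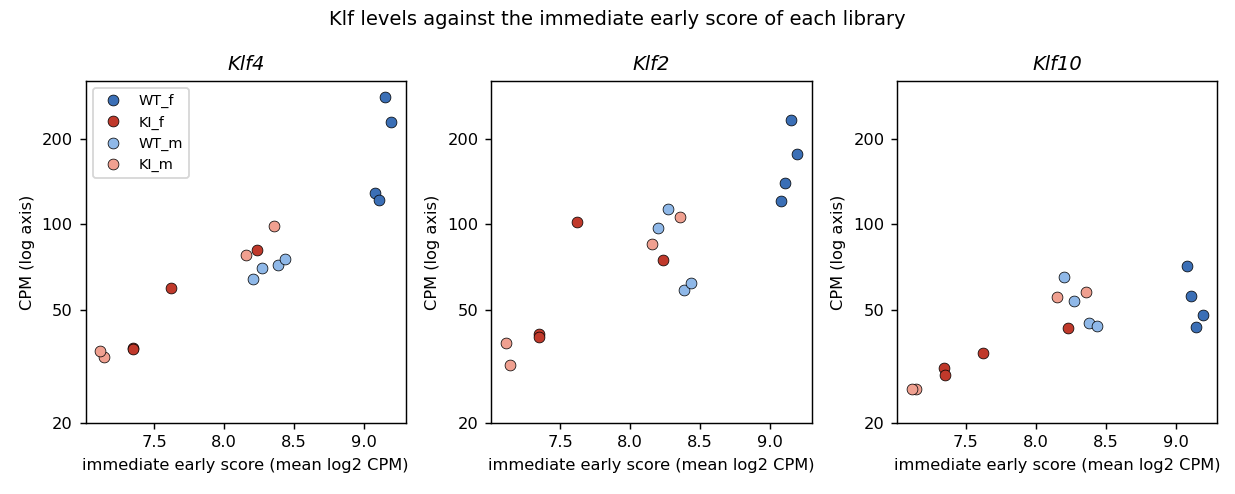
CPM of Klf4, Klf2 and Klf10 (y axis, log scale) against the immediate early score of the same library (x axis, mean log2 CPM of 16 genes), coloured by group. The libraries with the lowest scores have the lowest Klf4 and WT_f has the highest of both, while Klf10 in WT_f overlaps WT_m and KI_m replicates 3 and 4.

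Markers of other cells moved with some of these groups. The 12 endothelial markers, which matter because endothelium expresses Klf2 and Klf4 strongly, summed to 98.5 to 218.4 CPM in WT_f, 69.5 to 82.8 CPM in WT_m, 89.96 to 111.4 CPM in KI_f and 86.0 to 121.0 CPM in KI_m. In the f libraries 7 of the 12 were called lower in APP-NL-G-F, with a median log2 fold change of -0.96, and in m the median was 0.69 with 0 called. None of the 12 was at 0 counts in any library. The part of endothelial RNA in the Klf2 and Klf4 values was not tested. Deviations of the endothelial score had r = 0.091 with Klf2 and 0.342 with Klf4 over the 16 libraries. Among all members r lay between -0.418 (Klf10) and 0.638 (Klf9). The group means were removed from these r values, so the higher endothelial sums of WT_f do not enter them.

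Neuron markers summed to 444.4 to 491.3 CPM in WT_f, 397.4 to 555.6 CPM in WT_m, 585.5 to 688.6 CPM in KI_f and 497.0 to 734.0 CPM in KI_m, with 6 of 10 higher at the FDR alone and 0 called over both sexes. Their part in the values of Klf7, Klf9 or Klf12 was not tested. Of the other marker lists, Mog, a myelin gene, was called higher over both sexes (0.77, edgeR FDR 0.0335), and 0 of 6 mural and fibroblast, 0 of 6 astrocyte, 0 of 6 border macrophage, 0 of 5 monocyte and neutrophil and 0 of 10 microglia markers were called. In f, 1 mural and fibroblast and 2 astrocyte markers were called lower, and 2 neuron markers were called higher. Mitochondrial genes took 15.5% to 21.7% of the counts, and the highest shares, 21.7% and 19.7%, were in WT_f replicates 1 and 2, the libraries with the highest Klf2 and Klf4. Ribosomal RNA genes took 6.22% in KI_f replicate 3 and 7.96% in WT_m replicate 3, against 1.67% to 3.45% in the other 14 libraries. The part of these shares in the KLF values was not tested. KI_f replicate 3 is also the library without which no member was called.

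Other genes of the family were examined in the same way. Of 17 other KLF and SP genes, 10 were tested, with 1 called higher and 1 lower and a median log2 fold change of -0.06. Klf11, a Sin3-recruiting relative of Klf10, fell by 0.51 (standard error 0.143, edgeR FDR 0.0296), with averages of 12.8 ± 2.64 CPM for WT and 8.92 ± 2.11 CPM for APP-NL-G-F (SD, n = 8 each). Sp7, known from bone formation, rose by 0.63 (standard error 0.194, edgeR FDR 0.0497) from 1.82 ± 0.232 to 2.82 ± 0.902 CPM (SD, n = 8 each). Klf1, Klf5, Klf8, Klf14, Klf17, Sp5 and Sp6 were not tested, with at most 8 counts in any library. Klf17 had 0 counts in all 16 libraries, which allows up to 0.166 to 0.331 CPM depending on the library.

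Of 10 KLF cofactors (among them Sin3a, Ctbp1 and Ep300), 7 genes of the MEKK, ERK5 and MEF2 path that induces Klf2 and Klf4, and 6 genes of KLF protein turnover, 0 were called. At the FDR alone 3 cofactors and 1 induction gene, named after their values were seen, were lower: Sap30 (-0.35), Ep300 (-0.15), Crebbp (-0.11) and the kinase gene Map3k3 (-0.17). Their median log2 fold changes were -0.06, -0.02 and 0.00.

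Of 7 genes known as KLF2 targets in T cells and endothelium, 1 was called, the cell cycle inhibitor gene Cdkn1a at -0.51 (edgeR FDR 0.0267), and all 7 had values below 0. In f the median of this list was -0.55 with 3 called lower, and in m it was 0.15. Of 11 genes of TGF-beta signalling, 1 was called, the corepressor gene Tgif1 at -0.83 (edgeR FDR 0.0123). This list held early targets together with the ligand, receptor and Smad genes of the path. At the FDR alone 3 of them were lower, and the median log2 fold change was -0.11. Of 11 genes of the glucocorticoid response, the receptor gene among them, 8 had values below 0, with a median log2 fold change of -0.28. The 4 called lower were the clock gene Per1 at -0.90 (edgeR FDR 0.000992), the kinase gene Sgk1 at -0.67 (FDR 0.00259), the NF-kB inhibitor gene Nfkbia at -0.72 (FDR 0.0178) and Tsc22d3 at -0.52 (FDR 0.0465). Klf9, a glucocorticoid target as well, had 0.16 (FDR 0.317).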

How the data were processed

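Microglia isolated from the olfactory bulb were sequenced in 16 libraries. According to the methods of the study, STAR placed paired-end reads on GRCm39, using gencode vM32 plus human App sequence, and the authors deposited raw counts per gene; per the labels the tool and build are STAR and GRCm39. The strand column that was counted is not given in the sources used here. All 16 columns were mapped by their titles and no pair of libraries held identical values.

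Genes that reached 5 counts in 50% or more of the libraries were normalized by TMM and tested with edgeR 4.0.16 in R 4.3.3 (quasi-likelihood, trended dispersion, sex as a term, Benjamini-Hochberg FDR over all tested genes). Contrasts within sex, the interaction and the replicate sets came from fits of the 4 groups or of 8 groups of sex, genotype and set. Standard errors were derived from the fold change and the square root of its F statistic. CPM are scaled by TMM, and log2 CPM carry a prior count of 2. Library totals of 9052932 to 18117286 limit precision for genes with few counts; intervals and floors cover counting error only. The procedure was tested on simulated data.

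Correlations used 100000 permutations within groups and were adjusted over all tested genes rather than over the 9 members, as first planned. Alternatives were other normalizations, DESeq2 1.42.0, limma 3.58.1, filters, thresholds, a replicate block, a replicate set term and leaving out each library; the comparisons of sexes within a genotype and of genotype by replicate set were added after seeing the data. The members and gene lists were chosen with earlier results of these data known. All members are named in every comparison, with at most 4 called genes of each other list by smallest p and the 3 genes nearest in pattern to each member. Positions and promoters came from a later GENCODE release on GRCm39. Same-numbered replicates did not deviate together and were not treated as pairs.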

Additional observations from a re-analysis of the deposited data

Results flagged for a closer look

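The genotype difference of some members differed between the replicate sets, by the test of that difference itself in edgeR. That test was chosen after the values were seen, with 2 libraries per group in each set. In m libraries only Klf10 kept its call without KI_m replicate 1, without KI_m replicate 2, without WT_m replicate 3 or with a robust dispersion. In m libraries the value in replicates 3 and 4 exceeded that in replicates 1 and 2 by 2.25 for Klf2, 1.498 for Klf6 and 1.53 for Klf10 on the log2 scale (FDR 0.0391, 0.0323 and 0.00512). Over the mean of both sexes the difference was 1.27 for Klf4 (FDR 0.0903). The immediate early score of the same libraries was 7.141 and 7.112 in KI_m replicates 1 and 2 and 8.155 and 8.357 in replicates 3 and 4, and its part in the difference was not tested. The sets are known only from library names, so a difference of preparation and a difference of animals cannot be told apart. Among 48 groups of 4 libraries (the 9 members, the immediate early and endothelial scores and the library totals), Dixon's test at the 95% level marked 0 libraries as far from the others, against 2.4 that chance gives.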

How the results depend on the processing

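The log2 fold change of each member over both sexes kept its sign under the 15 settings tried and with each library left out. Over both sexes 3 members were called; with the robust dispersion 0 were, at an FDR below 0.05 1 was (Klf4), and at the FDR alone 6 were, where all genes called rose from 1574 to 2692. With replicates 1 and 2 alone 4 members and 2503 genes were called, and with replicates 3 and 4 alone 0 members and 80 genes, each from 8 libraries and chosen after seeing the data. Leaving out 1 library gave 0 to 4 members and 1101 to 2187 genes over both sexes, 2 to 4 members in f, 0 in m and in the interaction, 0 to 1 for f against m in WT, and 1 to 4 for genotype by replicate set in m. The 0 members came without KI_f replicate 3. In f, Klf2 was not called without KI_f replicate 1 or 3 or without WT_f replicate 1 or 2. Without a filter on low counts the interaction called 3 members and f against m called 1 (Klf4). Genotype by replicate set in m called 1 member with the robust dispersion. The cause of these changes was not tested. A replicate block gave 4 members, adding Klf10 (log2 fold change -0.52), and 1562 genes; same-numbered libraries correlated from -0.33 to 0.135 over 8 pairs, and 3 of 8 correlated best with their own number. RLE and upper quartile scaling, DESeq2, limma voom, a filter at 10 counts, no sex term and the mean of the sexes left the count of members within 1.5 times. Depth was not the limit for the 9 members, which held at least 111 counts in every library.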
